A study of Mus musculus with 34 samples.

Results

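The Usp17-like family of deubiquitinating enzymes was followed through single mouse embryos whose CHK1 had been manipulated. The 5 members, Usp17la, Usp17lb, Usp17lc, Usp17ld and Usp17le, were taken by symbol, and all 5 were listed among the 49686 genes of the zygote and late 2-cell tables and the 51734 genes of the blastocyst table. They were described singly and as a sum. Every embryo had been injected as a zygote with mRNA for CHK1, either the wild-type form (WT) or a mutant form labelled R442Q, so both groups carry injected CHK1 and no uninjected embryo was analysed here. Zygotes (5 WT, 6 R442Q) and late 2-cell embryos (4 WT, 5 R442Q) had no further treatment per the labels, whereas all 14 blastocysts (7 WT, 7 R442Q) had grown in KSOM medium with a CHK1 inhibitor at 30 nM. Each of the 34 libraries was 1 embryo without its zona pellucida, made with SMART-seq2 and Tn5 on a HiSeq X-10. The labels do not give the mothers, the days or the mouse strain, so p-values measure only the spread between these embryos.

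Deubiquitinating enzymes cut ubiquitin from tagged proteins and so spare them from the proteasome. The Usp17-like genes, first known as DUB genes, were found as early response genes of cytokine-stimulated blood cells, and the human relative DUB3 is reported to stabilise CDC25A, the phosphatase that activates CDK2 and CDK1. CHK1, a kinase of the DNA damage checkpoint, acts on the same phosphatase in the other direction by marking CDC25A for breakdown. In mice, family members are also known among the genes transcribed when the genome of the 2-cell embryo is activated.

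All 5 genes lie on chromosome 7 within 1612.9 kb (GENCODE M21, GRCm38) and are annotated as protein coding. Usp17ld (ENSMUSG00000057321.2, 103249737 to 103252505, reverse strand, known as Dub2a) and Usp17lc (ENSMUSG00000058976.4, 103415072 to 103419880, forward strand, known as Dub2) form one pair, 162.57 kb apart. The other 3 genes follow after a gap of 1348.2 kb. They are Usp17le (ENSMUSG00000043073.10, 104768049 to 104777470, reverse strand, known as Dub3), Usp17lb (ENSMUSG00000062369.2, 104840257 to 104842603, reverse strand, known as Dub1a) and Usp17la (ENSMUSG00000054568.7, 104857009 to 104862667, forward strand, known as Dub1). The coding sequence of Usp17lb, at 1404 bases in its longer form, is the shortest, and those of Usp17lc and Usp17ld, at 1635 bases, are the longest.

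How alike the genes are decides how well reads can be told apart. The stretch around the codon of the catalytic cysteine is 1 short example and does not stand for the whole sequence. The 48 coding bases shown are bases 154 to 201 of the GENCODE coding sequence (bases 256 to 303 in Usp17le), 5′ to 3′, with the cysteine codon in capitals.
Usp17la: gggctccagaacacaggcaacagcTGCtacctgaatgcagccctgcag
Usp17lb: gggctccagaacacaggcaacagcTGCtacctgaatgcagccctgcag
Usp17lc: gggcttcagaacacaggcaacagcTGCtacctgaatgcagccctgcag
Usp17ld: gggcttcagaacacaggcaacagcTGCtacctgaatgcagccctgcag
Usp17le: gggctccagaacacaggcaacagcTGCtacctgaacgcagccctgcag
Usp17la and Usp17lb are identical over these bases, as are Usp17lc and Usp17ld, so a read from either pair that is confined to these bases cannot be placed in 1 gene, while Usp17le differs from the other 4 genes here. Over the whole coding sequence Usp17lc and Usp17ld were 98.4% identical, and every other pair was between 90.6% and 94.4% identical. Usp17la and Usp17lb were at 91.2%. Counted in 50-base stretches of the transcripts, 50.4% of those of Usp17ld also occurred in Usp17lc, and 41.5% of those of Usp17lc occurred in Usp17ld. The share found in no other annotated gene was 79.9% for Usp17la, 78.6% for Usp17lb, 70.2% for Usp17le, 55.3% for Usp17lc and 48.9% for Usp17ld. Values of single members, above all Usp17lc against Usp17ld, therefore depend on how the authors' estimated counts split shared reads, and the sum of the members is given beside them. Usp17le-ps, an annotated copy that shares stretches with all 5 members, was listed only in the blastocyst table, at 0 in all 14 embryos. All 5 also share stretches with Gm5053, and the part of these copies in the values was not tested.

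**Figure D1:**
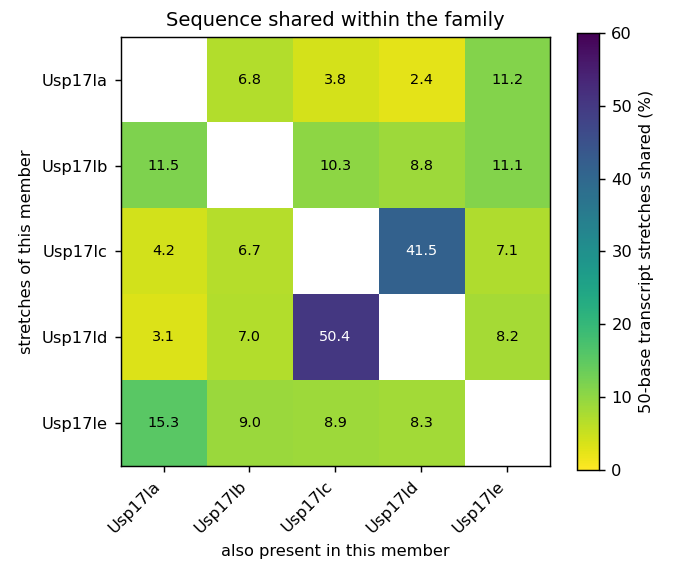
Share (%) of the 50-base transcript stretches of each member (rows) that also occur in each other member (columns); the diagonal is left empty. The darkest cells are Usp17ld in Usp17lc (50.4%) and Usp17lc in Usp17ld (41.5%), and the other pairs lie well below.

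The sequences before the start sites are shown because all 5 members rose between the first stages in WT embryos, as described below. RefSeq (GRCm38.p6) gave them for 4 of the 5 genes, each as the 250 bases before and the 50 bases after the annotated start, 5′ to 3′ on the gene's strand. Capitals mark 3 short motifs: TATAAA, CCACACCC, and CCAAT, which reads ATTGG where it lies on the other strand.
Usp17la promoter, chr7:104856766-104857065, forward strand: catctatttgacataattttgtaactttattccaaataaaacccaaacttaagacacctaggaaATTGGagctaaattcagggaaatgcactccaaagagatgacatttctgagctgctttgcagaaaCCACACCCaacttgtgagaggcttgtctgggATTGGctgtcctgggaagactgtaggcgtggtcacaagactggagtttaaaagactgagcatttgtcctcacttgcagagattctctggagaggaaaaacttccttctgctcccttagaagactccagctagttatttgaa
Usp17lb promoter, chr7:104842534-104842833, reverse strand: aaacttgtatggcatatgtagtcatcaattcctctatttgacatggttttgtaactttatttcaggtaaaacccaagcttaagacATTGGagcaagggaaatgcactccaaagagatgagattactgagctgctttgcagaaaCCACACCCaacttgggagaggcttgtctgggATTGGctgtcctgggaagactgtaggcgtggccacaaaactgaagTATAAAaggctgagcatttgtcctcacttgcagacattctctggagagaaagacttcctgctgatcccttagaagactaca
Usp17lc promoter, chr7:103416446-103416745, forward strand: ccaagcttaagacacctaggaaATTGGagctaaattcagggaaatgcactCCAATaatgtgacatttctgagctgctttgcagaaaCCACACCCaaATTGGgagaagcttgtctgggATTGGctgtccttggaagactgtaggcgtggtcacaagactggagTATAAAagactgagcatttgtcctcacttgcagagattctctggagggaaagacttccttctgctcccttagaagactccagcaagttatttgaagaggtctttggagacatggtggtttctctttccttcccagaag
Usp17ld promoter, chr7:103252456-103252755, reverse strand: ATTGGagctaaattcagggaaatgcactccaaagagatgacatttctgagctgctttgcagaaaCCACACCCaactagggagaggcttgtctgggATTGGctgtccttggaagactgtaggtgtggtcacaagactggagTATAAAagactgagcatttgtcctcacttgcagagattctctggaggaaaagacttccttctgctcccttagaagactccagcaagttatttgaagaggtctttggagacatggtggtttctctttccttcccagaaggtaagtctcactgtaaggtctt
The RefSeq start of Usp17lc lies 1624 bases inside its GENCODE gene, at the start of 1 of its 2 GENCODE transcripts. For Usp17la, Usp17lb and Usp17ld the RefSeq start lies 7, 20 and 0 bases inside the GENCODE gene. The RefSeq start of Usp17ld is the first base of its ATG, and that of Usp17lc lies shortly before its ATG. Distances are counted from the RefSeq start, so for these genes they need not be distances from where transcription begins. The promoters were 91.7% to 96.8% identical over the bases that aligned. TATAAA began 31, 88 and 110 bases before the RefSeq start of Usp17lb, Usp17lc and Usp17ld, and Usp17la had TTTAAA, 46 bases before its start. TATAAA occurred on either strand in 14.2% of the 27025 promoters of the same length. CCAAT, on either strand, was present in 4 of 4 members and in 37.9% of all promoters. CCACACCC was present in 4 of 4 members, between 107 and 186 bases before the start, and in 3.57% of all promoters. These are matches of letters in a short window and show no binding. The 4 promoters are near copies of one another where they align, so a motif shared by all 4 is not 4 independent matches. No enrichment was tested.

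Libraries held 7183632 to 11296522 counts at the zygote stage and 5727956 to 8916343 at the late 2-cell stage, and blastocyst depth in counts is unknown. A floor of 3 counts corresponded to between 0.266 and 0.418 CPM (counts scaled to a library total of 1000000) in zygotes and between 0.336 and 0.524 CPM in late 2-cell embryos, for counting error only. Chek1, the mouse gene of the injected product, was at 6236 ± 1832 CPM (SD, n = 5) in WT and 6587 ± 582 CPM (SD, n = 6) in R442Q zygotes, so the 2 zygote groups overlapped, and a count per gene does not separate the WT from the R442Q mRNA. Summed markers of cumulus cells, the maternal cells around the egg, were between 1.64 and 5.68 CPM in WT and between 0.974 and 7.36 CPM in R442Q zygotes. Of these 12 markers, 6 (Ptx3, Lum, Cd44, Amh, Inha and Lhcgr) were at 0 in all WT zygotes and 1 (Amh) in all R442Q zygotes. Summed markers of the oocyte and zygote, such as Zp3 and Gdf9, reached 8099 to 10389 CPM in WT and 5615 to 8020 CPM in R442Q zygotes, without overlap. Blastocyst markers such as Krt8 and Cdx2 summed to between 1473 and 24450 FPKM in blastocysts.

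In zygotes all 5 family members were higher with R442Q than with WT CHK1. The summed level was 8.28, 19.9, 16.6, 11.9 and 7.12 CPM in WT replicates 1 to 5, and ranged from 32.1 to 119 CPM with a median of 52.2 CPM over the 6 R442Q zygotes. Every R442Q zygote lay above every WT zygote, and the group means, 12.8 ± 5.44 CPM (SD, n = 5) and 58.7 ± 32.1 CPM (SD, n = 6), differed 4.60-fold. By edgeR's quasi-likelihood test with Benjamini-Hochberg adjustment, 5 of 5 members rose, against 6.3% of the 12420 genes tested that were called higher (13.2% in either direction). The median log2 fold change of the members was 2.30, beside 0.01 over all tested genes.

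Usp17la, the Dub1 gene, was at 0.618, 2.41, 1.86, 2.84 and 0.788 CPM in the WT zygotes, and ranged from 4.55 to 16.1 CPM with a median of 11.5 CPM in the R442Q zygotes. The groups did not overlap, which held with R442Q above for 2.54% of all tested genes. The log2 fold change was 2.75 ± 0.43 (SE), with an adjusted p of 0.00086 in edgeR. Here and below, the SE of an edgeR fit is approximate, as edgeR's test reports none. It is the size of the log2 fold change divided by the square root of the test's F.

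Usp17ld, the Dub2a gene, also separated the groups. Its values were 1.05, 4.48, 4.55, 2.47 and 1.62 CPM in WT, and lay between 9.48 and 15.4 CPM with a median of 10.1 CPM in R442Q zygotes. The lowest R442Q zygote was above the highest WT zygote, and R442Q replicate 2, at 15.4 CPM, stood above the next R442Q zygote at 11.5 CPM. Its log2 fold change was 2.11 ± 0.35 with an adjusted p of 0.00115 in edgeR. In a model that pooled the spread of zygotes and late 2-cell embryos the adjusted p was 0.118, with a log2 fold change of 2.12.

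Usp17lc, the Dub2 gene, was the member with the most counts in zygotes. It was at 4.89, 10.9, 8.81, 3.20 and 3.80 CPM in WT, and ranged from 7.60 to 63.9 CPM with a median of 26.1 CPM in R442Q zygotes. R442Q replicate 4 lay within the WT range and the other 5 lay above it. The log2 fold change of 2.29 ± 0.44 had an adjusted p of 0.00316 in edgeR.

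Usp17lb and Usp17le were scarce in zygotes. Usp17lb, the Dub1a gene, was at 0.865, 1.61, 0.630, 1.22 and 0.565 CPM in WT and ranged from 0.349 to 13.7 CPM with a median of 2.93 CPM in R442Q zygotes. Of the 6 R442Q zygotes, 4 lay above all WT values and replicate 4, with 3 counts, lay below them. Its log2 fold change was 2.30 ± 0.73 with an adjusted p of 0.0472 in edgeR. Usp17le, the Dub3 gene, was at 0.865, 0.464, 0.785, 2.16 and 0.348 CPM in WT and ranged from 1.11 to 10.2 CPM with a median of 2.73 CPM in R442Q zygotes. Only 3 of 6 R442Q zygotes lay above all WT values, and the log2 fold change of 2.31 ± 0.69 had an adjusted p of 0.0362 in edgeR.

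The calls of Usp17lb and Usp17le rested on few reads. WT counts were between 5 and 14 for Usp17lb and between 3.08 and 16.0 for Usp17le, so both genes passed the filter on low counts mainly through the R442Q zygotes. Without that filter both had an adjusted p of 0.0062 in edgeR, but in the model of 4 groups it was 0.0646 for Usp17lb and 0.192 for Usp17le. With limma on log2(FPKM + 1), a scale that understates changes of low genes, the log2 fold changes of Usp17la, Usp17lc and Usp17ld were 1.58, 1.68 and 1.52, and all 3 passed the threshold. That of Usp17lb was 0.93 (adjusted p = 0.188), and Usp17le was not tested. Leaving out 1 zygote at a time ended the call of Usp17lb in 8 of 11 fits and that of Usp17le in 6 of the 9 fits that kept it, with the largest adjusted p without R442Q replicate 2 (0.155 and 0.0951). R442Q replicate 2 had the highest value of all 5 members, and without it the log2 ratio of the mean summed CPM was 1.87 in place of 2.20. Usp17la, Usp17lc and Usp17ld kept an adjusted p under 0.05 in all 11 such fits. The oocyte markers were lower in the same R442Q zygotes, with 3 of 8 called lower and 0 higher, beside 6.92% of all tested genes called lower, and their part in the family's difference was not tested.

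**Figure D2:**
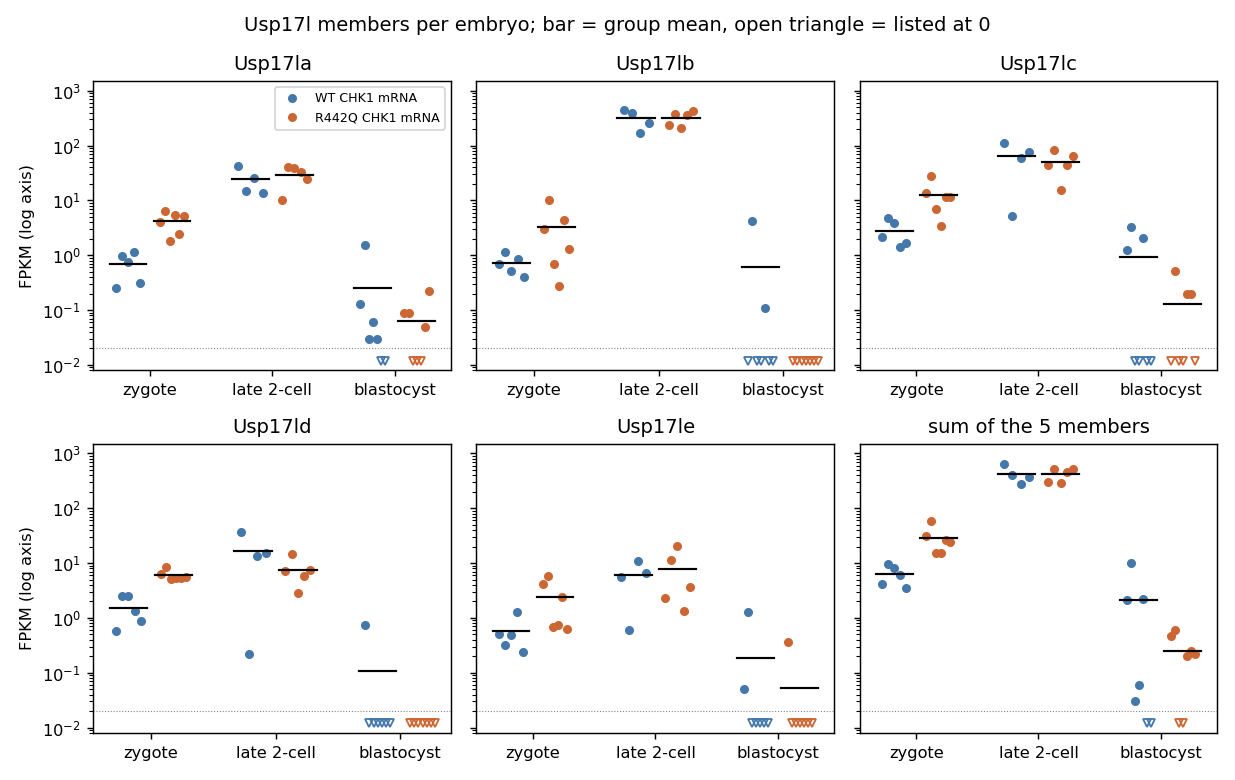
FPKM of each member and of their sum in every embryo (log axis), by stage, with WT in blue and R442Q in orange; bars are group means, and open triangles below the dotted line are embryos listed at 0. In zygotes the R442Q sums lie above all WT sums, late 2-cell groups overlap near means of 427 and 418 FPKM for the sum, and most blastocyst values are near or at 0.

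At the late 2-cell stage the family was abundant in both groups and no difference was called. The summed level was 1080, 571, 480 and 600.1 CPM in WT replicates 1 to 4 and 451, 852, 438, 691 and 803 CPM in R442Q replicates 1 to 5. The groups overlapped, and their means were 683 ± 270 CPM (SD, n = 4) and 647 ± 194 CPM (SD, n = 5). In edgeR 0 of 5 members passed an adjusted p of 0.05, against 4.18% of the 13883 genes tested. An unadjusted p under 0.05 was found for 0 of 5, beside 2910 of those genes. DESeq2 also called 0 of 5, beside 14.9% of the 11166 genes to which it gave an adjusted p. The groups did not overlap for 0 of 5 members, against 12.4% of the genes tested in either direction.

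Usp17lb carried most of the late 2-cell signal. It was at 623, 522, 226 and 354 CPM in WT and at 309, 510, 271, 496 and 575 CPM in R442Q embryos. The ranges overlapped almost fully, and the log2 fold change was 0.11 ± 0.35 with an adjusted p of 0.894 in edgeR. Usp17la was at 111, 37.5, 66.4 and 35.1 CPM in WT and at 25.2, 105, 96.5, 82.2 and 62.1 CPM in R442Q embryos. No R442Q embryo was above the highest WT embryo, and the log2 fold change was 0.35 ± 0.42 (adjusted p = 0.693, edgeR).

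Usp17lc and Usp17ld were lowest in the same WT embryo. Usp17lc was at 264, 10.4, 142 and 171 CPM in WT and at 99.9, 190, 31.5, 99.4 and 147 CPM in R442Q embryos. Usp17ld was at 71.1, 0.417, 25.4 and 28.2 CPM in WT and at 13.0, 27.6, 5.13, 10.8 and 13.7 CPM in R442Q embryos. That embryo, WT replicate 2, had 2.87 counts of Usp17ld, below the floor. The log2 fold changes were −0.23 ± 0.64 for Usp17lc (adjusted p = 0.881) and −1.0 ± 0.81 for Usp17ld (adjusted p = 0.53) in edgeR. With 1 embryo left out, the Usp17ld value lay between −1.41 and −0.28, the first of these when WT replicate 2 was dropped and the second when WT replicate 1 was dropped.

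Usp17le had the lowest mean CPM of the members in both groups. It was at 9.99, 1.06, 19.9 and 11.7 CPM in WT and at 3.91, 19.9, 34.1, 2.37 and 6.45 CPM in R442Q embryos. R442Q replicate 3 was the highest of all 9 embryos, and the log2 fold change was 0.36 ± 0.83 (adjusted p = 0.851, edgeR). The SEs of the 5 members lay between 0.35 and 0.83 on the log2 scale, and a p above the threshold does not show that the groups were alike.

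From zygote to late 2-cell the family rose in WT embryos for every member. In 1 edgeR model of the raw counts of both stages, 5 of 5 members were higher in late 2-cell WT embryos, against 36.2% of the 16199 genes tested. Usp17lb changed most, from a mean of 0.977 to 431 CPM, a 441-fold difference and a log2 fold change of 8.68 ± 0.74 (adjusted p = 9.4e-10). Its lowest late 2-cell WT value was 141 times its highest WT zygote value, and by log2 fold change it ranked 164 of all tested genes. Usp17la rose by 5.07 ± 0.52 on the log2 scale (adjusted p = 1.8e-08) and Usp17lc by 4.42 ± 0.68 (adjusted p = 6.9e-06). Usp17ld rose by 3.34 ± 0.73 (adjusted p = 0.00041) and Usp17le by 3.43 ± 0.90 (adjusted p = 0.0022). The ranges of both stages were apart for 2 members, Usp17lb and Usp17la, in CPM, as for 32.1% of the genes tested, and met for the other 3 members. WT late 2-cell replicate 2 lay within the WT zygote range for Usp17lc and Usp17le and below it for Usp17ld.

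In R442Q embryos, which started higher, 3 of 5 members rose, against 35.3% of the genes tested. Usp17lb went from 4.45 to 432 CPM, a 97.2-fold difference and a log2 fold change of 6.44 ± 0.60 (adjusted p = 2.3e-09, edgeR). Usp17la rose by 2.60 ± 0.42 (adjusted p = 9.4e-06) and Usp17lc by 1.82 ± 0.56 (adjusted p = 0.0064). Usp17le had a log2 fold change of 1.43 ± 0.75 (adjusted p = 0.0989), and Usp17ld had 0.17 ± 0.62 (adjusted p = 0.821), from 11.1 to 14.1 CPM. Usp17le was called without R442Q zygote replicate 2 (adjusted p = 0.0488) and without R442Q late 2-cell replicate 4 (adjusted p = 0.0496). With 1 embryo left out its log2 fold change ranged from 0.83 to 1.81, with the largest adjusted p, 0.351, without R442Q late 2-cell replicate 3, and with the replicate block it was 0.94 (adjusted p = 0.365).

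The difference between these stage changes was tested directly as the interaction of group and stage. It was below 0 for all 5 members and passed the threshold for 2 of 5, Usp17la and Usp17ld, against 7.05% of genes called lower (10.1% in either direction). The interaction was −2.46 ± 0.63 for Usp17la (adjusted p = 0.0143) and −3.17 ± 0.95 for Usp17ld (adjusted p = 0.0341) in edgeR. It was −2.59 ± 0.84 for Usp17lc (adjusted p = 0.0506), −2.24 ± 0.82 for Usp17lb (adjusted p = 0.0844) and −2.0 ± 1.14 for Usp17le (adjusted p = 0.289). The call of Usp17ld was lost in 14 of 20 fits that left out 1 embryo, with the largest adjusted p, 0.127, without late 2-cell WT replicate 1. With RLE size factors the median interaction of all genes moved from −0.16 to −0.01 and the called genes from 497 higher and 1142 lower to 707 higher and 917 lower, while Usp17la and Usp17ld again were the members that passed. DESeq2 called 3 of 5 members lower, beside 1310 of 16199 genes (2446 in either direction). The oocyte and zygote markers had 4 of 8 genes called higher in this test and 0 lower, beside 3.07% of all tested genes called higher, and their part in it was not tested. The zygote comparison and the stage changes share embryos with this test, so its calls are not independent of theirs.

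**Figure D3:**
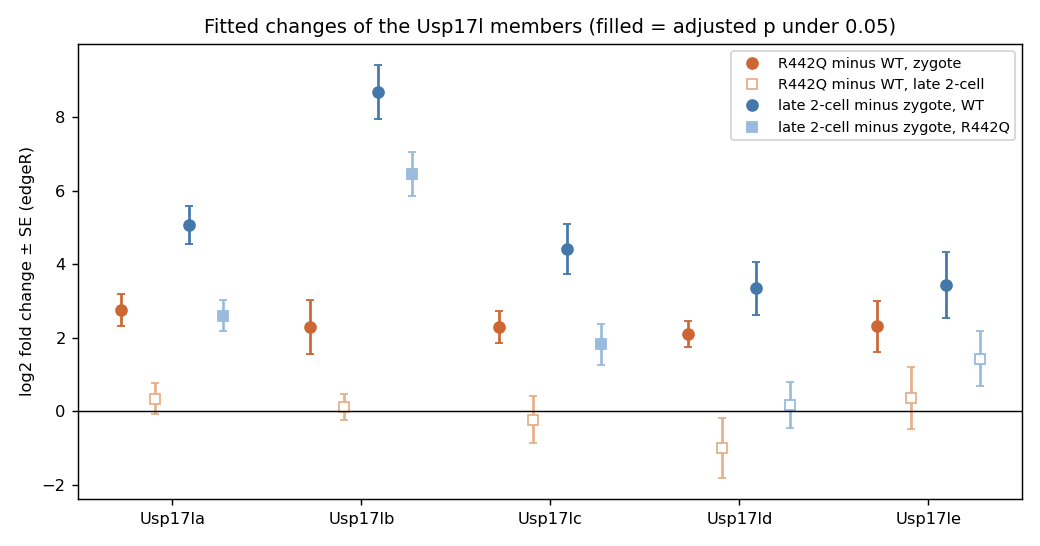
Log2 fold changes of the 5 members from edgeR, with approximate standard errors worked out from the test's F. Orange is R442Q minus WT, in zygotes (dark) and late 2-cell embryos (light). Blue is late 2-cell minus zygote, in WT (dark) and R442Q embryos (light). Filled symbols have an adjusted p under 0.05. All zygote differences lie between 2.11 and 2.75, no late 2-cell difference is called, and Usp17lb has the highest stage change in both groups.

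The member that led the family differed between the stages. Levels of different genes are compared here as FPKM, which divides by transcript length. The stages come from separately made tables, and summed FPKM over all genes was 669904 to 687863 in zygotes but 712234 to 742246 in WT and 814376 to 976830 in R442Q late 2-cell embryos, so shares within an embryo are used across stages. In zygotes Usp17lc had the highest FPKM of the 5 in 5 of 5 WT and 5 of 6 R442Q embryos, with Usp17ld first in R442Q replicate 4. In late 2-cell embryos Usp17lb was first in 9 of 9.

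In WT zygotes the mean FPKM ran from Usp17lc (2.81) through Usp17ld (1.55), Usp17lb (0.728) and Usp17la (0.680) to Usp17le (0.57). Each gene's range met that of its neighbour, and only the order of Usp17lc over Usp17ld held in 5 of 5 embryos. In R442Q zygotes the order was Usp17lc (12.5), Usp17ld (6.0), Usp17la (4.19), Usp17lb (3.32) and Usp17le (2.41), again with overlapping neighbours. Usp17ld over Usp17la was the one neighbouring order seen in 6 of 6.

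In late 2-cell WT embryos Usp17lb was at 453, 386, 166 and 261 FPKM, with a mean of 316 and rank 322 of 49686 listed genes. In R442Q embryos it was at 234, 377, 210.1, 366.5 and 428 FPKM, with a mean of 323 and rank 470. These ranges lay above those of Usp17lc, the next member, with means of 63.8 and 50.03 FPKM. Usp17la followed at 24.1 and 29.3 FPKM, and Usp17ld (16.5 and 7.62) and Usp17le (5.97 and 7.89) had the lowest means. Usp17ld was above Usp17le in 3 of 4 WT and 4 of 5 R442Q embryos, and the higher R442Q mean of Usp17le came from replicate 3 (20.6 FPKM).

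As a share of the family's FPKM, Usp17lb held between 6.28% and 16.7% in WT zygotes and between 1.85% and 17.4% in R442Q zygotes. It held between 60.1% and 94.9% in WT and between 71.4% and 81.5% in R442Q late 2-cell embryos. The highest of these, 94.9%, belonged to WT replicate 2, where Usp17lc made up 1.30%, Usp17le 0.147% and Usp17ld 0.0541%. That embryo had the second highest Usp17lb level of its group, and its Usp17lc, Usp17ld and Usp17le levels were the lowest of its group. The FPKM ratio of Usp17lc to Usp17ld had a median of 1.91 in WT and 2.11 in R442Q zygotes, and of 4.80 and 6.23 in WT and R442Q late 2-cell embryos. Since this pair shares the most sequence, its ratio depends on the authors' split of shared reads.

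**Figure D4:**
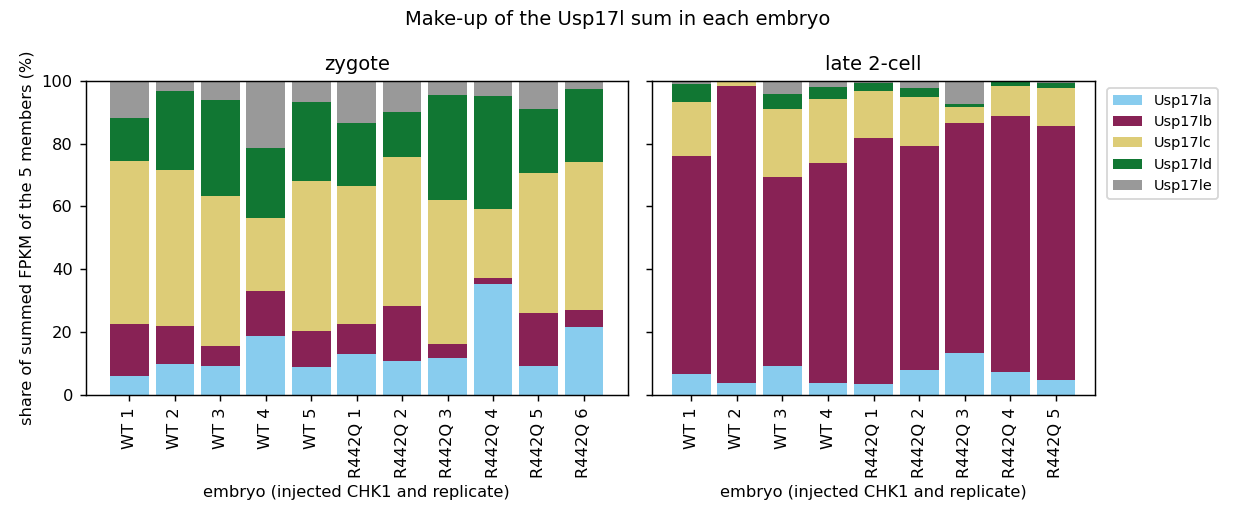
Share (%) of the summed FPKM of the 5 members held by each member, 1 bar per embryo, in zygotes (left) and late 2-cell embryos (right), by injected CHK1 and replicate. Usp17lc (yellow) leads in all zygotes but R442Q 4, Usp17lb (purple) takes at least 60.1% in every late 2-cell embryo, and WT 2 has the highest share at 94.9%.

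In blastocysts grown with the inhibitor the summed FPKM of the family was below 1 in 11 of 14 embryos. The summed FPKM was 2.14, 10.2, 0.03, 0.06, 2.18, 0 and 0 in WT replicates 1 to 7 and 0.46, 0.60, 0, 0, 0.20, 0.25 and 0.22 in R442Q replicates 1 to 7. The groups overlapped, and 3 WT embryos lay above all R442Q embryos. WT replicate 2 lay above the WT zygote range of 3.51 to 9.78 FPKM, which comes from a separately made table. In TPM it was at 9.92, within the WT zygote range of 5.18 to 14.2. Usp17lb was listed at 4.19 FPKM in WT replicate 2, at 0.11 in WT replicate 5 and at 0 in the other 12 embryos. Usp17ld was listed above 0 in 1 embryo, WT replicate 1, at 0.74 FPKM.

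Usp17lc was the member most often first in blastocysts, in 2 of 7 WT and 3 of 7 R442Q embryos, with 3.23 FPKM as its highest value. Usp17la reached 1.53 FPKM and Usp17le 1.26 FPKM, both in WT replicate 2. None of the 5 had at least 1 FPKM in at least 7 embryos, so 0 of 5 entered the limma test, in which 0.00885% of 11297 genes were called. With no filter limma gave the members adjusted p-values between 0.799 and 0.849. Since the blastocysts differ from the other stages in treatment and table, their level is set beside theirs without a test.

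The genes whose mean levels over the 6 groups were most like the family's were found by distance between profiles. For each gene the 6 group means of FPKM were written as percents of their total, and the distance is the share, in percentage points, that would have to move to match the family's sum. The family's own profile was 0.718% in WT zygotes, 3.23% in R442Q zygotes, 48.4% in WT and 47.4% in R442Q late 2-cell embryos, 0.237% in WT and 0.0280% in R442Q blastocysts. Of 12191 genes compared over 34 embryos, 165 lay within 10 points. The nearest was Gm5814 at 1.69 points, followed by Apol7b, an apolipoprotein L gene, at 1.80, Gm5453 at 2.14, Speer4cos at 2.33 and Gm8094 at 2.43.

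Apol7b had mean FPKM of 0.314 in WT and 1.75 in R442Q zygotes, and of 36.7 and 35.0 in late 2-cell embryos. The profiles use FPKM as listed, although the summed FPKM over all genes differed between groups and stages. When TPM, which gives every embryo the same total, replaced FPKM, 4 of these 5 genes were again among the nearest 5. In TPM the family's late 2-cell shares were 52.7% in WT and 42.5% in R442Q embryos, so their near equality in FPKM depends on the scale. The distances weigh mostly the late 2-cell share, which makes up nearly all of the family's total, and give no likeness across single embryos.

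Other genes transcribed around genome activation were listed for comparison. Of 27 2-cell genes, which include Zscan4 and Tdpoz copies, 19 were tested in zygotes, and 10 rose and 1 fell with R442Q, where 13.2% of all tested genes were called (6.3% higher). The other 8 failed the filter on low counts, and 4 of the 10 that rose had a mean below 10 counts in WT zygotes, so they could pass that filter through the R442Q zygotes. Without the filter 26 were tested, of which 15 rose and 1 fell, beside 3.0% of all 28656 genes called higher. Zscan4f, a 2-cell gene tied to telomere maintenance, went from 0.692 ± 0.60 CPM (SD, n = 5) to 16.7 ± 21.4 CPM (SD, n = 6). Its log2 fold change was 4.65 ± 0.87 (adjusted p = 0.00248, edgeR). Gm6763 went from 3.62 ± 1.23 to 41.4 ± 28.3 CPM, by 3.63 ± 0.41 on the log2 scale (adjusted p = 0.00013).

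From zygote to late 2-cell, 21 of 27 rose and 2 fell in WT embryos, where 36.2% of all tested genes rose and 25% fell, with a median log2 fold change of 6.34 beside 0.34 over all genes. In R442Q embryos 23 rose and 1 fell, where 35.3% of all tested genes rose and 29.8% fell. Between the groups of late 2-cell embryos 1 of 26 tested genes was called in edgeR, higher with R442Q, beside 4.18% of all tested genes in either direction. Of the 26, 11 had an unadjusted p under 0.05 in edgeR, beside 2910 of all 13883. DESeq2 called 5 of them higher, beside 14.9% of all genes in either direction. The median log2 fold change of the 26 was 1.26 beside 0.07 for all tested genes, and that of the 5 family members was 0.11. Tdpoz1, a BTB-domain gene, had the smallest p of these, with a rise by 8.55 ± 0.50 in WT (adjusted p = 3.4e-12), beside 8.68 ± 0.74 for Usp17lb.

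The other ubiquitin-specific proteases were counted next. Of 51 such genes 46 were tested in zygotes, of which 1 rose and 1 fell, where 13.2% of all tested genes were called. Usp15, an enzyme of TGF-beta signalling, rose from 416 ± 26.7 to 540.5 ± 33.4 CPM, by a log2 fold change of 0.50 ± 0.09 (adjusted p = 0.00187). Usp14, which trims ubiquitin at the proteasome, fell by 0.75 ± 0.15 on the log2 scale (adjusted p = 0.00453), from 61.4 ± 7.82 to 33.7 ± 7.63 CPM.

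At the late 2-cell stage 47 of these proteases were tested, of which 0 rose and 5 fell in edgeR, with 13 at an unadjusted p under 0.05, while in DESeq2 1 rose and 10 fell. Over all tested genes 4.18% were called in edgeR and 14.9% in DESeq2, and 2910 of 13883 had an unadjusted p under 0.05 in edgeR. The 5 were Usp19, Usp38, Usp36, Usp8 and Usp5, with log2 fold changes from −1.73 to −2.08. Usp36, a nucleolar enzyme, went from 81.4 ± 53.7 CPM (SD, n = 4) to 18.5 ± 5.80 CPM (SD, n = 5), and had an adjusted p of 0.0172 in edgeR. From zygote to late 2-cell in WT embryos, 14 of 49 tested proteases rose and 16 fell, beside 36.2% and 25% of all tested genes. Usp50 rose by 3.20 ± 0.28 (adjusted p = 1.5e-09), and Usp46 fell by 3.81 ± 0.25 (adjusted p = 2.0e-11) on the log2 scale.

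Genes of proteins reported as substrates of human DUB3 were also counted. Of the 7, which were all tested in zygotes, 1 rose and 2 fell with R442Q, beside 13.2% of all tested genes called. Cdc25a went from 70.2 ± 11.6 CPM (SD, n = 5) to 28.5 ± 7.15 CPM (SD, n = 6), a fall by 1.18 ± 0.19 on the log2 scale with an adjusted p of 0.00085 in edgeR. Rce1, a protease that processes prenylated proteins, fell by 0.93 ± 0.23 (adjusted p = 0.0122). Ccna2, which encodes cyclin A2, rose by 0.42 ± 0.11 (adjusted p = 0.0159). At the late 2-cell stage 0 of 7 passed the threshold between the groups in edgeR and in DESeq2, beside 4.18% and 14.9% of all genes, and 2 had an unadjusted p under 0.05 in edgeR.

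From zygote to late 2-cell in WT embryos 4 of these 7 genes rose and 1 fell, beside 36.2% and 25% of all tested genes. Snai1, a transcriptional repressor, rose from 19.8 ± 2.56 to 219 ± 101 CPM, and Cdc25a fell by 1.82 ± 0.36 on the log2 scale (adjusted p = 0.00016, edgeR). Of 20 genes of CDC25 control and mitotic entry, 19 were tested in zygotes, of which Ccna2 and Ccne1 rose and Cdc25a, Btrc and Atr fell, 5 called genes beside 13.2% of all tested genes. Btrc, a subunit of the ubiquitin ligase that recognises CDC25A, fell by 0.51 ± 0.11 (adjusted p = 0.0067), and Ccne1, cyclin E1, rose by 0.84 ± 0.23 (adjusted p = 0.0206). At the late 2-cell stage 0 of 19 passed between the groups in edgeR, where 4 had an unadjusted p under 0.05, and 1 passed in DESeq2, beside 4.18% and 14.9% of all genes. RNA levels of these genes give no measure of protein or of ubiquitin on it.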

How the data were processed

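Members and gene lists were chosen with earlier results of these data known. The deposited zygote and late 2-cell tables hold the authors' estimated counts per gene, not normalised (RSEM and mm10, per the submitters' processing notes), of which 90.7% and 89.9% of values were whole. The authors' deposited FPKM values cover all 3 stages, and the blastocyst table was made with a different gene list. Annotation and use of strand are not given in the sources used here. Groups and replicate numbers came from the sample titles. The sample descriptions carry another number for 9 of 34 embryos (5 WT zygotes, 2 WT and 2 R442Q late 2-cell embryos), which would pair embryos differently and was not used in the fits; by those numbers r was between −0.07 and 0.04 in zygotes and between −0.14 and −0.06 at the late 2-cell stage.

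Counts were rounded and tested with edgeR 4.0.16 (R 4.3.3): filterByExpr, TMM scaling and the quasi-likelihood test per stage, and 1 model of 4 groups for stage changes and the interaction. Blastocysts were tested with limma 3.58.1 on log2(FPKM + 1). Calls required a Benjamini-Hochberg adjusted p under 0.05 over all tested genes. DESeq2 1.42.0, RLE size factors, no filter, a replicate block, FPKM or TPM in limma, and leaving out embryos were alternatives. The tests were also run on simulated data, and the outcome is not given here. Deviations from the group means were correlated over genes between same-numbered WT and R442Q embryos. By title numbers r was between −0.06 and 0.06 in zygotes. At the late 2-cell stage r was between −0.14 and 0.21, over 0.1 in 1 of 4 pairs. In blastocysts r was between −0.17 and 0.20, over 0.1 in 3 of 7 pairs. Named genes were all members, Chek1, the 5 genes nearest in profile, and up to 5 called genes per list and comparison by p, with a selection of these given in the text. The results of 1 listed 2-cell gene are not reported here. Transcript stretches and coding sequences came from GENCODE M21, and promoters from RefSeq.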

Additional observations from a re-analysis of the deposited data

Results flagged for a closer look

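The rule for a single embryo far from its group gives about 1 in 20 by chance only for independent, normally distributed values. The groups looked at share embryos, the sum is made of the members, and many blastocyst values are tied at the lowest level. The number found therefore has no chance rate to be set against. Of 34 groups of values looked at, 11 held a single embryo far from the rest of its group. In zygotes these were Usp17le in WT replicate 4 (2.16 CPM, next 0.865), Usp17ld in R442Q replicate 2 (15.4 CPM, next 11.5) and the summed level in R442Q replicate 2 (119 CPM, next 63.8).

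In blastocysts WT replicate 2 stood apart for Usp17la (1.53 FPKM), Usp17lb (4.19 FPKM), Usp17le (1.26 FPKM) and the sum (10.2 FPKM), and WT replicate 1 for Usp17ld (0.74 FPKM). Among R442Q blastocysts replicate 7 stood apart for Usp17la (0.22 FPKM), replicate 2 for Usp17lc (0.51 FPKM) and replicate 1 for Usp17le (0.37 FPKM). Most other embryos in these groups were listed at or near 0, so a small level is enough to stand apart.

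The effect of R442Q differed between late 2-cell embryos and zygotes by a test of the interaction in edgeR for Usp17la (−2.46 on the log2 scale) and Usp17ld (−3.17).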

How the results depend on the processing

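The zygote rise kept its direction for every member in all alternatives that could be fitted. The number of members called in zygotes was 3 with the replicate block, 3 with limma on FPKM, 2 in the model of 4 groups and 3 to 5 when 1 embryo was left out. Over all genes, these settings called 1217 of 12420, 1642 of 11849, 270 of 16199 and, with 1 embryo left out, 1125 to 1718, in either direction. For the interaction the number of members called was 4 without a filter, 1 with the replicate block and 1 to 3 when 1 embryo was left out. Over all genes, 1437 of 31286, 1085 of 16199 and 1089 to 2311 were called in these fits, in either direction. In WT embryos 5 of 5 members rose between the stages in every alternative. Over all genes 9342 to 10457 were called in either direction in the alternatives that kept every embryo, and 9306 to 10279 with 1 embryo left out.

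Late 2-cell differences changed sign: with 1 embryo left out, Usp17lb ranged from −0.11 to 0.28 (below 0 without WT replicate 3 or R442Q replicate 5), Usp17lc from −0.62 to 0.15 (above 0 without WT replicate 1 or R442Q replicate 3) and Usp17le from −0.25 to 0.84 (below 0 without WT replicate 2 or R442Q replicate 3). Usp17lc was 0.059 with limma on FPKM. The R442Q stage change of Usp17ld ranged from −0.14 to 0.45 (below 0 without late 2-cell R442Q replicate 2). None of these was called, and the cause was not tested.

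Over all genes, 1643 were called in zygotes but 270 in the model of 4 groups. The 580 called in late 2-cell embryos became 889 without a filter, 1664 in DESeq2, 58 with the replicate block, 2507 in the model of 4 groups and 142 to 891 when 1 embryo was left out. In blastocysts the 1 gene called (836 at an unadjusted p under 0.05) became 0 with the block, 0 without a filter and 0 to 30 without 1 embryo. For the interaction, 1639 became 1085 with the block and 1089 to 2311 without 1 embryo. Zygote calls split into 783 higher and 860 lower, but 411 and 1231 with limma on FPKM and 197 and 73 in the model of 4 groups. Those of late 2-cell embryos were 170 and 410, but 736 and 928 in DESeq2 and 264 and 388 with limma on FPKM.

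With the replicate number of the sample titles as a block, Usp17lb had an adjusted p of 0.117 and Usp17le of 0.0785 in zygotes, and Usp17ld of 0.10 for the interaction, in edgeR. Per the labels, same-numbered embryos share only a number, so a call lost under the block is not described as weaker. WT zygotes held 5 to 14 counts of Usp17lb and 3.08 to 16.0 of Usp17le.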
